A study of Mus musculus with 4 samples.

Results

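Sertoli cells are the somatic nurse cells of the seminiferous tubule, and 9 of their marker genes were followed in testis RNA of mice that lack the taste receptor subunit gene Tas1r3. The genes were Sox9, Wt1, Gata4, Fshr, Clu, Inha, Inhbb, Trf and Rhox5, chosen by symbol, and all 9 were found among the 17934 genes of the tables. The groups were 2 libraries of Tas1r3-/- testis (KO) and 2 libraries of Tas1r3+/+ testis (WT). All came from male C57BL/6 mice that had eaten a western diet for 18 weeks, so KO and WT shared the diet and no group on another diet was analysed here. Age and the structure of the null allele are not given in the sources used here. The labels do not say whether each library stands for its own mouse, and the spread behind the p-values could thus be technical in part.

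Sertoli cells receive follicle-stimulating hormone (FSH) through the receptor FSHR and testosterone through the androgen receptor. They answer with secreted proteins. Inhibin, built from an alpha and a beta subunit, reports back to the pituitary and lowers FSH release, while transferrin carries iron to the germ cells behind the blood-testis barrier. SOX9, WT1 and GATA4 are transcription factors that set up and maintain Sertoli cell identity. Not every marker is exclusive: GATA4 and inhibin alpha are also made by Leydig cells, and clusterin by the epididymis and other tissues.

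Fshr had the lowest level per transcript length of the 9 genes and is the point where the hormone signal enters the cell, so its promoter is shown. The window of 300 bases runs from 250 bases before to 50 bases after the annotated start, at chr17:89200626-89200925 on the minus strand of GRCm38.p6, from RefSeq. This build differs from that of the expression tables. Capitals mark an E-box, the binding letters of basic helix-loop-helix factors such as USF proteins, at positions -61 to -56 from the start.
Fshr: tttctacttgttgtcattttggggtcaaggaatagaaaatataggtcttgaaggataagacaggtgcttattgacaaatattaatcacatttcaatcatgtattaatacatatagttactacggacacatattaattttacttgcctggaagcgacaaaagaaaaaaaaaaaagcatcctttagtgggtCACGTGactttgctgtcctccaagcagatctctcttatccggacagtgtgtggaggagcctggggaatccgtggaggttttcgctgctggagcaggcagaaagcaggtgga
The letters CACGTG, searched on both strands, where they read the same, stood in 7.15% of 32851 promoter windows of this length. Windows were at hand for 4 of the 9 genes, Fshr, Inha, Inhbb and Rhox5. Of these 4 windows, 1 held CACGTG, that of Fshr. These letters were chosen as an E-box of Fshr, so the match was fixed in advance and cannot be read against the 7.15%. The SOX-type letters AACAAT, searched on both strands, were in 1 window, that of Rhox5, against 10.7% of all windows. The GATA-type letters AGATAA, searched on both strands, were in 0 of the 4, against 11.2% of all windows. A match is a description of the letters and not evidence of binding.

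The values are CPM, reads per 1000000 reads assigned to the listed transcripts. Depth was estimated at 748637 and 597937 assigned reads in KO replicates 1 and 2, and 1719356 and 1807694 in WT replicates 1 and 2. The mean WT depth was 2.62 times the mean KO depth, so counting error was larger in KO. Tas1r3 itself had 1.34 and 0 CPM in KO replicates 1 and 2 and 13.8 and 20.5 CPM in WT replicates 1 and 2, so the library labels and the targeted gene matched. In such whole-testis RNA, fewer cells of a type and less RNA per cell cannot be told apart.

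Per length of transcript the 9 genes spanned a wide range of levels. Clu stood highest at 602 ± 71.7 CPM per kilobase in KO and 630.2 ± 10.2 in WT (SD, n = 2 each). Inha came next at 57.8 ± 7.26 CPM per kilobase in KO and 68.2 ± 2.09 in WT. The ranges over all 4 libraries of these top genes did not overlap with each other or with the gene below. From the third place on, Rhox5, Trf, Wt1, Inhbb, Gata4, Sox9 and Fshr followed in order of mean level, and each range over the libraries overlapped with the next. The lower order is therefore not separated beyond the spread of the libraries, with Trf, for example, in places 5 and 7 in KO replicates 1 and 2 and in place 3 in both WT libraries. Fshr was lowest in all 4 libraries, at 1.27 ± 0.637 CPM per kilobase in KO and 1.45 ± 0.394 in WT.

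**Figure D1:**
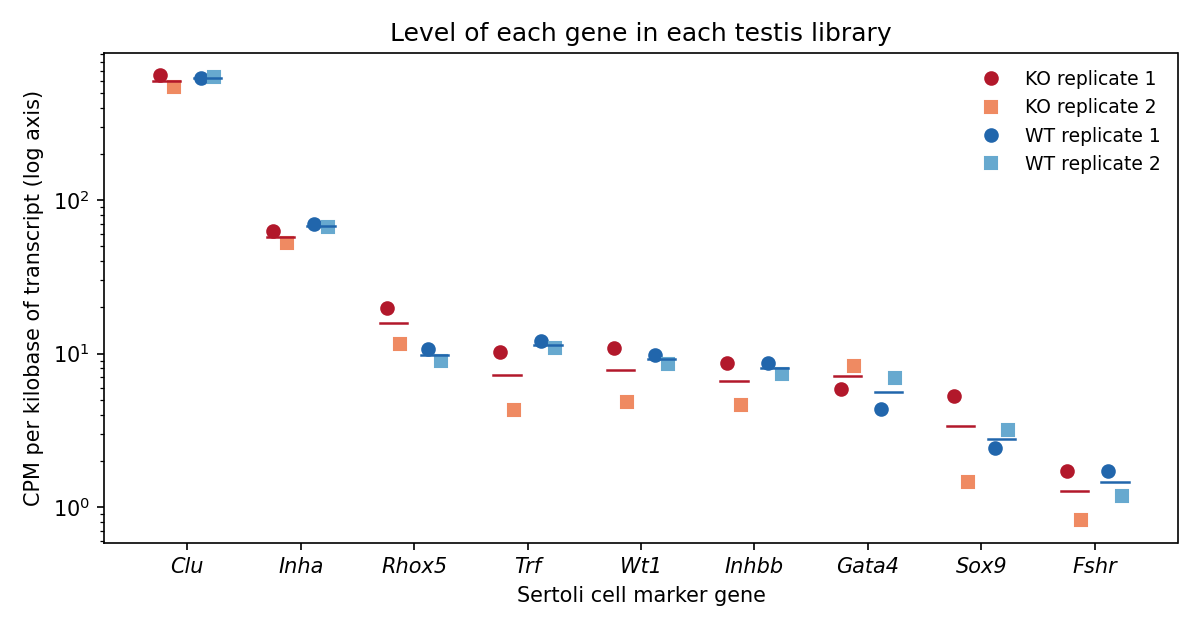
Level of the 9 genes in CPM per kilobase of transcript on a log axis, with 1 point per library and a line at the mean of each genotype, genes ordered by their mean. Clu and Inha lie apart from the rest, Fshr is lowest, and the KO points are farther from each other than the WT points for most genes.

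None of the 9 genes was called between KO and WT, by a test that did not call the targeted gene Tas1r3 either. Tas1r3 had a log2 fold change of -3.54 (limma, BH-adjusted p = 0.627). A count of 0 called genes here thus does not show that a difference is absent. The difference was tested over all 17654 genes that averaged 1 CPM or more, which included all 9, with limma on log2(CPM + 1) and Benjamini-Hochberg (BH) adjustment. Of the 9 genes 0 passed, against 0.00566% of all genes tested, and at an unadjusted p under 0.05 there were also 0 of 9, against 4.33% (limma, BH-adjusted p from 0.95 to 0.997). The mean log2 level was higher in KO for 3 genes and lower for 6, where 44.9% of all genes tested were higher, with a median log2 fold change (KO minus WT) of -0.18, against -0.04 over all genes tested. The split rested on single libraries: without KO replicate 2, 7 of the 9 were higher, and without KO replicate 1, 2 of the 9.

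**Figure D2:**
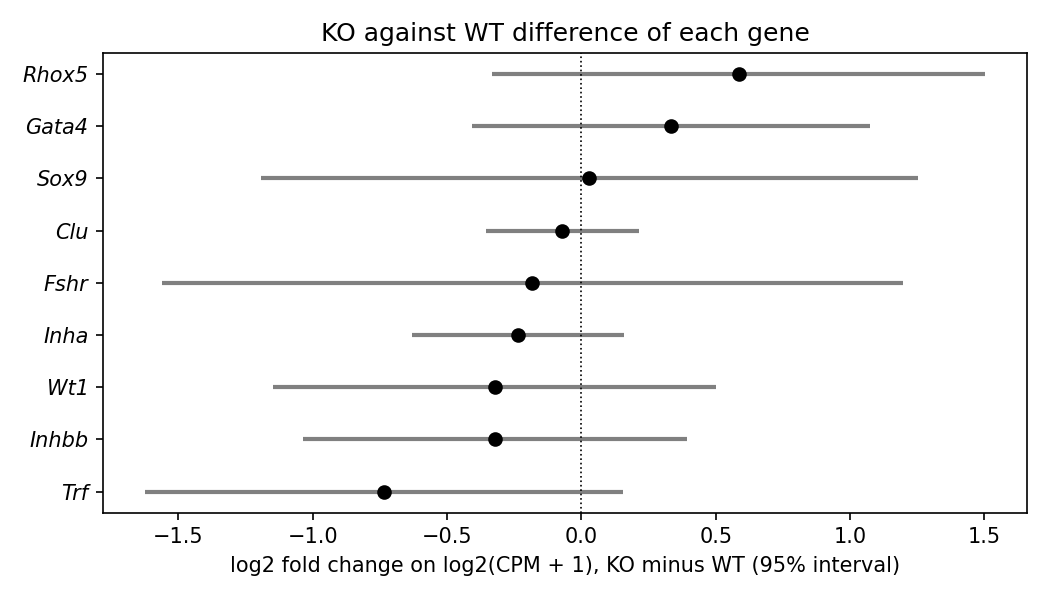
Difference of each gene between KO and WT as log2 fold change on log2(CPM + 1), with its 95% interval from limma over 2 libraries per genotype. Every interval includes 0, and the intervals are narrowest for Clu and Inha and widest for Fshr and Sox9.

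The transcription factor genes gave no common direction. Sox9, which starts Sertoli cell differentiation in the fetal gonad, is at chromosome 11, 112673036 to 112678584 on mm39, the build of all coordinates of the expression tables. It had 22.0 and 6.03 CPM in KO replicates 1 and 2, and 10.02 and 13.1 CPM in WT replicates 1 and 2. The KO libraries were the highest and the lowest of all, with the WT libraries between them. The log2 fold change of Sox9 was 0.03 (SE 0.54, 95% interval -1.19 to 1.25; limma, BH-adjusted p = 0.997), so changes of over 2-fold in either direction lie inside the interval.

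Wt1, a zinc finger gene needed for the gonad and for Sertoli cell maintenance, is at chromosome 2, 104956874 to 105003960. It had 33.4 and 15.1 CPM in KO replicates 1 and 2, and 30.5 and 26.4 CPM in WT replicates 1 and 2. As with Sox9, KO replicate 1 was highest and KO replicate 2 lowest. The log2 fold change was -0.32 (SE 0.36, 95% interval -1.15 to 0.50; limma, BH-adjusted p = 0.95).

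Gata4, a zinc finger gene of Sertoli and Leydig cells at chromosome 14, 63436363 to 63482721, went the other way between the KO libraries. It had 20.04 and 28.4 CPM in KO replicates 1 and 2, and 14.9 and 23.5 CPM in WT replicates 1 and 2. The groups overlapped, with KO replicate 2 highest, and the log2 fold change was 0.33 (SE 0.33, 95% interval -0.41 to 1.08; limma, BH-adjusted p = 0.95). The tables list 2 Gata4 transcripts of 3408 and 3405 bases, and the division of reads between them was uneven. The transcript of 3408 bases had 0.307 and 13.9 CPM in KO replicates 1 and 2, and 13.9 and 11.5 CPM in WT replicates 1 and 2. The transcript of 3405 bases had 19.7 and 14.5 CPM in KO, and 1.06 and 11.99 CPM in WT. Their near-equal lengths leave the division uncertain, and with the higher transcript in place of the sum the log2 fold change of Gata4 was 1.79 (limma, BH-adjusted p = 0.933).

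Fshr, the receptor gene described above, is at chromosome 17, 89292380 to 89508104. It had 4.06 and 1.93 CPM in KO replicates 1 and 2, and 4.08 and 2.77 CPM in WT replicates 1 and 2. These levels are 3 and 1.2 estimated reads in KO and 7 and 5 in WT. The groups overlapped, and the log2 fold change was -0.18 (SE 0.61, 95% interval -1.56 to 1.196; limma, BH-adjusted p = 0.983). The pooled reads, 4 in KO and 12 in WT, gave a KO to WT ratio of 0.873 with a 95% exact conditional interval from 0.205 to 2.88, which covers counting error only. A difference in Fshr was not detectable at this depth.

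The inhibin subunit genes had lower means in KO, and the alpha subunit did not overlap between the genotypes, but both differences leaned on KO replicate 2. Inha, for the alpha subunit, is at chromosome 1, 75483721 to 75487011. It had 93.5 and 78.6 CPM in KO replicates 1 and 2, and 104 and 98.9 CPM in WT replicates 1 and 2. Both KO libraries lay below both WT libraries, with a log2 fold change of -0.24 (SE 0.17, 95% interval -0.63 to 0.16; limma, BH-adjusted p = 0.95). Inha was counted as 117 pooled reads in KO and 357 in WT, a ratio of 0.858 whose counting interval, 0.691 to 1.06, includes no difference. Without KO replicate 2 its log2 fold change was -0.11. Apart from that, in a single random thinning of all libraries to equal depth, the log2 fold change of Inha was -0.05. Nearly all of the Inha level was the transcript of 1475 bases, with 90.2 and 74.2 CPM in KO and 100.3 and 96.9 CPM in WT. The Leydig cell markers, cells that also make inhibin alpha, summed over 7 of 7 measured genes to 1626 and 1687 CPM in KO and to 1791 and 1884 CPM in WT, with 0 genes at 0. The sums were carried by the hormone gene Insl3, with 1234 and 1278 CPM in KO and 1517 and 1464 CPM in WT, and only 3 of the 7 had a lower mean in KO. The other 6 summed to 393 and 409 CPM in KO and to 274 and 419.9 CPM in WT, with no common direction. The part of these markers in the Inha difference was not tested.

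Inhbb, for the beta B subunit that joins alpha in inhibin B and pairs with itself in activin B, is at chromosome 1, 119343193 to 119349979. It had 36.7 and 19.7 CPM in KO replicates 1 and 2, and 36.9 and 31.2 CPM in WT replicates 1 and 2. KO replicate 1 was level with the higher WT library and KO replicate 2 was below all. The log2 fold change was -0.32 (SE 0.32, 95% interval -1.04 to 0.39; limma, BH-adjusted p = 0.95). Without KO replicate 2 the direction turned, with a log2 fold change of 0.11.

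The secreted carrier and chaperone genes differed in precision. Clu, for the extracellular chaperone clusterin, is at chromosome 14, 66205932 to 66218998. It had 1182 and 998 CPM in KO replicates 1 and 2, and 1128 and 1154 CPM in WT replicates 1 and 2. The WT libraries lay between the KO libraries, and the log2 fold change was -0.07 (SE 0.13, 95% interval -0.36 to 0.21; limma, BH-adjusted p = 0.966). With 1482 pooled reads in KO and 4027 in WT it was the best counted of the 9, and its interval was the narrowest. Of epididymis markers, a tissue rich in clusterin, 2 of 5 were measured and none was above 4 CPM in any library except Crisp1, listed at 0 in 3 libraries and at 40.7 CPM in WT replicate 1.

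Trf, for transferrin, is at chromosome 9, 103086075 to 103107486. It had 24.04 and 10.03 CPM in KO replicates 1 and 2, and 28.1 and 25.2 CPM in WT replicates 1 and 2. Both KO libraries lay below both WT libraries, but KO replicate 1 only slightly, and the KO mean was 0.638 times the WT mean. The pooled reads were 24 in KO, of which 6 were in KO replicate 2, and 94 in WT. Their ratio was 0.669 with a counting interval from 0.408 to 1.06, which includes no difference. The log2 fold change was -0.73 (SE 0.39, 95% interval -1.62 to 0.16; limma, BH-adjusted p = 0.95). The difference rested on KO replicate 2: without it the log2 fold change was -0.14 (limma, BH-adjusted p = 0.847), and without KO replicate 1 it was -1.33 (limma, BH-adjusted p = 0.00359). That last fit takes its spread from the WT pair alone, assumes that the lone KO library varies likewise, and called 5.98% of 17618 genes.

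Rhox5, an X-linked homeobox gene that answers to androgen in Sertoli cells, is at chromosome X, 36891657 to 36897306. It had 17.4 and 10.03 CPM in KO replicates 1 and 2, and 9.31 and 7.74 CPM in WT replicates 1 and 2. It was the only one of the 9 with both KO libraries above both WT libraries. The KO mean was 1.61 times the WT mean, and the log2 fold change was 0.58 (SE 0.41, 95% interval -0.33 to 1.504; limma, BH-adjusted p = 0.95). The pooled reads were 19 in KO and 30 in WT, a ratio of 1.66 with a counting interval from 0.882 to 3.05. In all, the genotypes did not overlap for 3 of the 9 genes, Inha, Trf and Rhox5, against 34.3% of all genes tested.

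The KO libraries differed from each other more than the WT libraries did, by SD of CPM, for 8 of the 9 genes, at their lower depth. The share of all genes tested with a larger SD in KO was not computed, so this count is not a result about the 9 genes. KO replicate 2 was below KO replicate 1 for 8 of the 9 genes, all but Gata4, against 51.0% of all genes tested. It was the lowest of all libraries for 7 of the 9, all but Gata4 and Rhox5, against 33.4% of all genes tested and 35.7% of the 10148 genes that averaged 10 CPM or more. Taken by the reads of these libraries alone, KO replicate 1 exceeded KO replicate 2 by 3.19 times for Sox9 (95% exact conditional interval 1.03 to 13.1), by 2.22 times for Wt1 (1.002 to 5.40) and by 1.18 times for Clu (1.07 to 1.32). For the other 6 genes the interval between the KO libraries included no difference, and between the WT libraries it did so for all 9. These intervals compare libraries and not genotypes, and they were not adjusted for their number. They were computed for the 9 genes only, so the share of all genes with such a difference is not known.

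**Figure D3:**
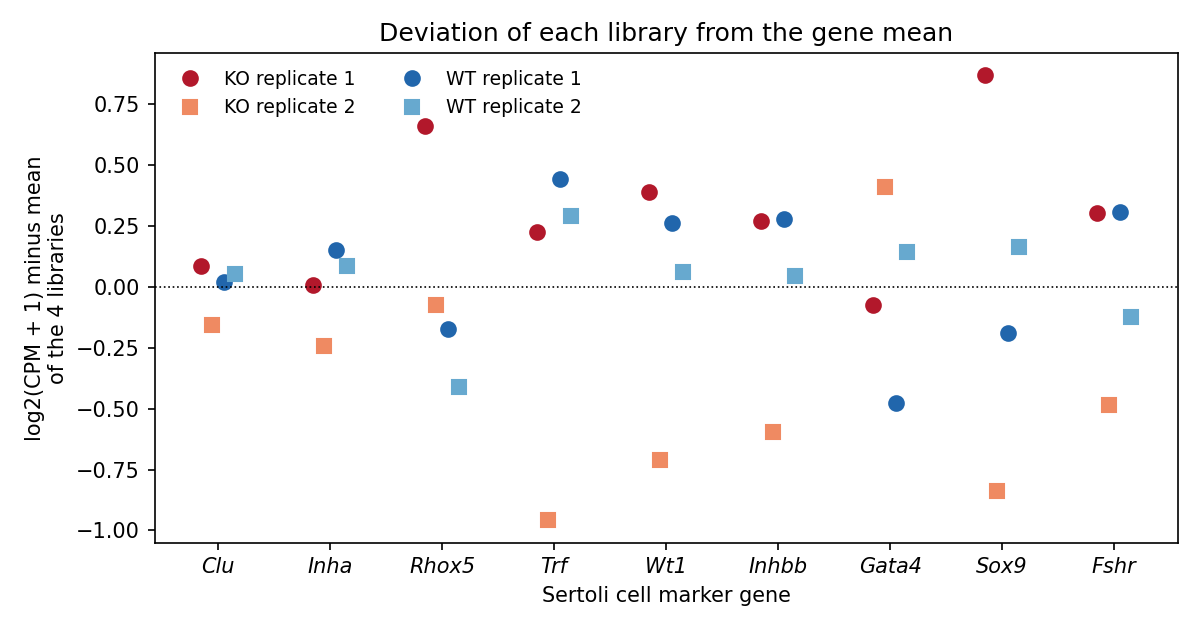
Deviation of each library from the mean of the 4 libraries, in log2(CPM + 1), for each of the 9 genes, with 1 point per library. KO replicate 2 is the lowest point for 7 genes, and the WT points stay near each other for most genes.

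Summed over the 9 genes the level was 1433 and 1168 CPM in KO replicates 1 and 2, and 1366 and 1383 CPM in WT replicates 1 and 2. Clu alone made up 82.5% and 85.5% of the sum in KO and 82.6% and 83.5% in WT. The other 8 genes summed to 251 and 170 CPM in KO replicates 1 and 2, and to 237 and 229 CPM in WT replicates 1 and 2. KO replicate 2 was thus the lowest and KO replicate 1 the highest, with and without Clu. Germ cell marker sums also differed between the KO libraries, though 0 of the 7 spermatid and 0 of the 6 spermatocyte markers were called between KO and WT (limma, BH over all genes tested). Spermatid markers, 7 of 7 measured and none at 0, summed to 21030 and 31480 CPM in KO, and to 25053 and 24976 CPM in WT, highest where the Sertoli genes were lowest. Of the 7, 5 were highest in KO replicate 2, while Odf1, of the sperm tail, had 1556 and 1512 CPM in KO and 1622 and 1553 CPM in WT, and Acrv1, of the acrosome, had 209.7 and 247.5 CPM in KO and 250.7 and 235.1 CPM in WT. Spermatocyte markers, 6 of 6 measured and none at 0, summed to 808 and 608 CPM in KO, and to 605.1 and 604.5 CPM in WT. In this sum KO replicate 1 alone stood apart, but it was carried by Piwil1, with 462 and 321 CPM in KO and 331 and 375 CPM in WT. Sycp1 had 77.8 and 74.9 CPM in KO and 57.3 and 53.4 CPM in WT. Hormad1 had 76.1 and 75.3 CPM in KO and 55.8 and 47.0 CPM in WT. Both were thus higher in both KO libraries, while the rest of the list overlapped between the genotypes. Since CPM is a share of each library, more RNA of one kind lowers the share of the rest, and the part of these germ cell sums in the Sertoli gene levels was not tested.

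**Figure D4:**
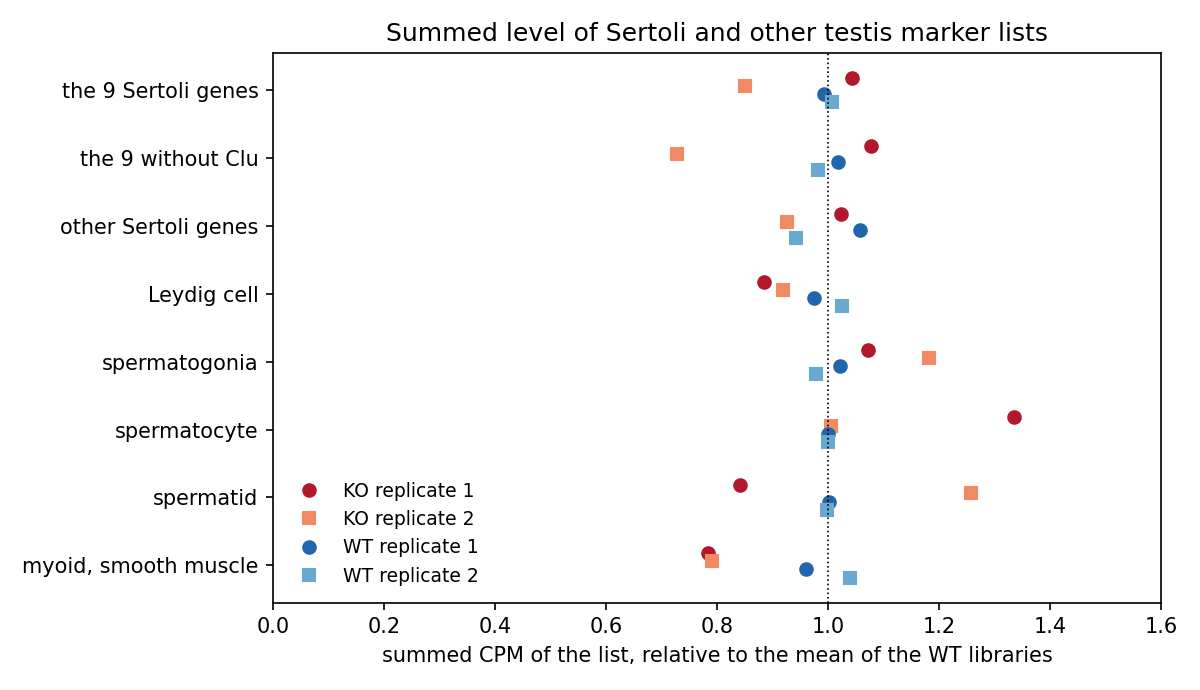
Summed CPM of the 9 genes, of the 8 without Clu, of the other Sertoli cell genes and of marker lists of other testis cells, relative to the mean of the WT libraries, with 1 point per library. KO replicate 2 is at 0.728 for the 8 genes without Clu and at 1.26 for the spermatid list, while KO replicate 1 is at 1.08 and 0.841.

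A wider set of Sertoli cell genes was read off the same fit. Of 24 further genes all 24 were measured and tested, and 0 passed over all genes tested (limma, BH-adjusted p from 0.95 to 0.999), with 0 at an unadjusted p under 0.05. By mean log2 level 13 were higher and 11 lower in KO, with a median log2 fold change of 0.01. KO replicate 2 was the lowest library for 12 of the 24, against 33.4% of all genes tested. The genotypes did not overlap for 4 of the 24, against 34.3%. The list summed to 1228 and 1112 CPM in KO replicates 1 and 2, and to 1271 and 1132 CPM in WT replicates 1 and 2, so that WT replicate 2 was nearly as low as KO replicate 2. Closest to the threshold were Ocln, Etv5 and Gdnf. Etv5, a transcription factor gene of the stem cell niche, had 18.7 and 18.6 CPM in KO and 12.7 and 13.8 CPM in WT. Ocln, for the tight junction protein occludin, had 8.58 and 8.09 CPM in KO and 4.04 and 5.53 CPM in WT. Gdnf, the growth factor that Sertoli cells supply to spermatogonial stem cells, had 1 pooled read in KO and 9 in WT, a ratio of 0.291 whose counting interval, 0.00664 to 2.1003, includes no difference. Dhh, the hedgehog ligand gene of Sertoli cells, was chosen after its values were seen. It had 18.0 and 48.5 CPM in KO replicates 1 and 2 and 31.5 and 24.9 CPM in WT replicates 1 and 2, so the WT libraries lay between the KO libraries. Without KO replicate 1 its log2 fold change was 0.77, which rests on KO replicate 2 alone.

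The signalling partners of inhibin and FSH gave 0 called genes as well. Of 12 activin and inhibin signalling genes 11 were measured and tested, 5 higher and 6 lower in KO by mean log2 level. The genotypes did not overlap for 4 of the 11, against 34.3% of all genes tested. With 0 called (limma, BH-adjusted p from 0.95 to 0.998), 1 of the 11 was at an unadjusted p under 0.05, against 4.33% of all genes tested. That 1 was Tgfbr3, for betaglycan, the co-receptor through which inhibin opposes activin. It had 6.36 and 3.34 CPM in KO and 13.13 and 13.09 CPM in WT, without overlap, and a log2 fold change of -1.32 (SE 0.45, 95% interval -2.33 to -0.31; limma, unadjusted p = 0.0163 and BH-adjusted p = 0.95). Counted as 7 pooled reads in KO and 46 in WT, its ratio was 0.399 with a counting interval from 0.152 to 0.889. Tgfbr3 is expressed in more cell types than the Sertoli cell. Acvr1b, a type I activin receptor gene, had 21.8 and 5.08 CPM in KO and 22.7 and 19.4 CPM in WT, low only in KO replicate 2. Smad2, a transducer of activin signals, had 22.7 and 23.4 CPM in KO and 18.0 and 18.8 CPM in WT.

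Of 12 FSH receptor signalling genes all 12 were tested, 6 higher and 6 lower in KO by mean log2 level, with 0 called and 0 at an unadjusted p under 0.05 (limma, BH-adjusted p from 0.95 to 0.99). Appl1, for an adaptor that binds the FSH receptor, had 21.4 and 29.4 CPM in KO and 19.2 and 15.5 CPM in WT. Pde4d, for a phosphodiesterase that degrades cAMP, had 4.01 and 8.88 CPM in KO and 7.36 and 11.4 CPM in WT. Arrb2, for a beta-arrestin, had 5.11 and 0 CPM in KO and 2.41 and 5.51 CPM in WT. Appl1 did not overlap between the genotypes, while Pde4d and Arrb2 did. In this list the genotypes did not overlap for 4 of the 12, against 34.3% of all genes tested. Several genes of the list, such as Crem, are also active in germ cells.

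Gonadal transcription factor genes beyond the 9 were likewise not called, with 0 of 17 called and 0 at an unadjusted p under 0.05 (limma, BH-adjusted p from 0.95 to 0.999). Of these, 11 were higher and 6 lower in KO by mean log2 level, where 44.9% of all genes tested were higher. The genotypes did not overlap for 3 of the 17, against 34.3% of all genes tested. Dmrt1, of Sertoli cells and spermatogonia, had 37.1 and 26.6 CPM in KO and 23.8 and 16.3 CPM in WT, without overlap. Nr0b1, a nuclear receptor gene, had 25.4 and 20.1 CPM in KO and 17.5 and 17.6 CPM in WT. Gata6, a relative of Gata4, had 10.8 and 5.78 CPM in KO and 8.59 and 17.8 CPM in WT.

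Of 9 iron handling genes, the setting of transferrin, 1 was higher and 8 lower in KO by mean log2 level, where 44.9% of all genes tested were higher. Of the 9, 0 were called and 0 were at an unadjusted p under 0.05 (limma, BH-adjusted p from 0.95 to 0.98). The genotypes did not overlap for 3 of the 9, against 34.3% of all genes tested. The list summed to 538 and 441 CPM in KO replicates 1 and 2, and to 561 and 535 CPM in WT replicates 1 and 2. The median log2 fold change was -0.24, against -0.04 over all genes tested, and KO replicate 2 was the lowest library for 6 of the 9, against 33.4%. Slc11a2, for a divalent metal transporter, had 14.7 and 14.5 CPM in KO and 21.9 and 24.7 CPM in WT, without overlap. Fth1, for the ferritin heavy chain, had 172 and 144 CPM in KO and 192 and 180 CPM in WT, also without overlap. Slc40a1, for the iron exporter ferroportin, had 1 pooled read in KO and 9 in WT, a difference not detectable at this depth (counting interval of the ratio 0.00664 to 2.1003).

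Of 13 listed Rhox cluster genes besides Rhox5, 4 were measured and tested and 0 called (limma, BH-adjusted p from 0.95 to 0.994). By mean log2 level 2 were higher and 2 lower in KO, with a median log2 fold change of -0.61. The genotypes did not overlap for 2 of the 4, against 34.3% of all genes tested. Rhox13 had 8.24 and 8.12 CPM in KO and 4.51 and 4.01 CPM in WT, higher in both KO libraries like Rhox5. Its pooled reads were 11 in KO and 15 in WT, a ratio of 1.92 whose counting interval, 0.798 to 4.48, includes no difference. Rhox3a was the 1 of the 4 at an unadjusted p under 0.05, against 4.33% of all genes tested. It had 0 pooled reads in KO and 13 in WT, 1.65-fold lower if KO is set to the floor of 3 reads over both KO libraries. The 95% exact conditional interval of its KO to WT ratio runs from 0 to 0.859 and so allows a smaller difference than that floor does. Rhox3a belongs to a family of near copies, so its reads are uncertain. Rhox11 had 2 pooled reads in KO and 15 in WT, a ratio of 0.349 with a counting interval from 0.0388 to 1.502. Rhox8, also a Sertoli cell homeobox gene, was among the further Sertoli genes and was not called.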

How the data were processed

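For every library the authors deposited a table of CPM values over 29342 RefSeq transcripts. The unit was inferred from the values, since each deposited column sums to 1000000 and the value of 1 read does not vary with transcript length. The submitters' processing notes name STAR, Partek and mm39. Ion Total RNA-Seq libraries were built from RNAqueous extracts, per the labels' protocols. No source used here says whether counting used strand.

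Transcripts were summed per symbol (10 symbols on several chromosomes were kept apart). The CPM of 1 read was estimated from the commonest low values. Within 0.01 reads, 21.1% to 49.1% of genes per library were whole, so no count model was run. Pooled reads were rounded to whole numbers, and intervals (95%, exact conditional) cover counting error only, since reads carry no molecular identifiers.

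The comparison of KO with WT used log2(CPM + 1) in limma 3.58.1 (R 4.3.3), which understates changes of low genes, with a mean-variance trend, two-sided, BH over 17654 genes, called at an adjusted p under 0.05. Trimmed mean of M values (TMM) factors were computed on the deposited CPM as 1 alternative. The 9 genes and the lists were chosen with earlier results of these data known. Named beside the 9 are up to 3 genes per list by unadjusted p. Tas1r3, Dhh, Rhox8, Crem and the genes named from marker lists of other cell types were not picked by this rule. The 14 alternatives are given in the closing section. Figures were drawn with matplotlib 3.10.9.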

Additional observations from a re-analysis of the deposited data

How the results depend on the processing

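Groups of 2 libraries and 597937 reads in the shallowest library limit these results: Clu and Inha rest on over 100 pooled reads per genotype, Fshr on 4 in KO. None of the 9 genes was called under any alternative apart from Trf without KO replicate 1, and 114 of the single-gene values had the same sign and call as reported. Leaving out 1 library gave 0 to 1 of the 9 genes called, 0 to 1 of the 24 further Sertoli genes, 0 to 1054 of all genes, and 2 to 7 of the 9 higher in KO. The number of all genes called, 1 as reported, was 0 with a pseudocount of 0.1 CPM, with the highest transcript per symbol, after thinning to equal depth and without the mean-variance trend. Over leaving out 1 library the log2 fold change changed sign for Sox9 (-0.83 to 0.88), Wt1 (-0.87 to 0.23), Fshr (-0.58 to 0.21), Clu (-0.19 to 0.051) and Inhbb (-0.76 to 0.11). After thinning, which was a single random draw, it was -0.32 for Sox9, -0.12 for Gata4, -0.94 for Fshr and -0.63 for Inhbb. In that draw 1 of the 9 was higher in KO. After quantile normalization the log2 fold change was 0.046 for Fshr, which was not tested with a minimum of 5 CPM. The cause of these changes was not tested. A pseudocount of 5 CPM, no filter and TMM factors changed no sign and no call among the 9 genes. With the replicate number as a replicate block, 0 of the 9 and 24 of all genes were called. The numbers are not stated to pair libraries, and the replicate differences of KO and WT correlated at -0.00585 across genes.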

Other observations

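Crisp1, a gene of the epididymis, had 40.7 CPM in WT replicate 1 and was listed at 0 in KO replicates 1 and 2 and in WT replicate 2. Rnase10, the other epididymis marker measured, had 3.88 and 3.46 CPM in KO replicates 1 and 2 and 0.00446 and 3.75 CPM in WT replicates 1 and 2. At 1.34 and 1.67 CPM per read in KO and 0.582 and 0.553 in WT, Rnase10 rests on few reads. Whether the 2 markers moved together was not tested. Peritubular myoid and smooth muscle markers, the cells that wrap the tubule next to the Sertoli cells, summed over 5 of 5 genes to 85.7 and 86.5 CPM in KO and to 105 and 114 CPM in WT, with 0 of 5 called (limma, BH over all genes tested). Tagln, of smooth muscle, had 8.01 and 6.69 CPM in KO and 14.9 and 12.7 CPM in WT. Myh11 and Des were also lower in both KO libraries, while Acta2 and Cnn1 overlapped between the genotypes. Acta2, the highest of the list, had 45.6 and 54.0 CPM in KO and 51.3 and 54.8 CPM in WT.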
